A study of Mus musculus with 16 samples.

Results

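Genes that mark fat, blood, neutrophils and nerve were read in RNA sequencing of the tibialis anterior (TA), which lies along the shin and lifts the foot, as a measure of other tissue in the muscle samples. The genes were Adipoq, Plin1, Cfd and Fabp4 for fat, Hba-a1 and Hbb-bs for blood, S100a8 and S100a9 for neutrophils, and Mbp for nerve. They were taken by symbol, through the GENCODE annotation of the mouse build GRCm38, and make up 9 of the 29730 genes counted. The 16 samples, in 4 groups of 4, were labelled as male mice of strain C57BL/6N aged 7 weeks. WT_PBS were wild-type mice given phosphate-buffered saline, WT_ASO were wild-type mice given ASO1, an antisense oligonucleotide, and KO_PBS and KO_ASO were Bin1mck-/- mice given saline or ASO1. Per the series title, ASO1 lowers Dnm2 and Bin1mck-/- mice model recessive centronuclear myopathy. How much ASO1 was given and when, which part of Bin1 was deleted and what drove the deletion were not found in the labels. The RNA came from whole muscle, in which fewer cells of a type and less RNA per cell of that type cannot be told apart. Nothing in the labels says how the muscles were trimmed or whether blood was flushed out, and every sample was treated as coming from its own mouse.

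A dissected muscle holds more than muscle fibres. Fat cells store triglyceride in a droplet coated by perilipin 1 (Plin1) and secrete adiponectin (Adipoq) and adipsin, also called complement factor D (Cfd). The fatty acid carrier Fabp4 is abundant in fat cells and is also made by the endothelial cells of capillaries and by macrophages. Red blood cells carry haemoglobin, built from alpha chains (Hba-a1 and its copy Hba-a2) and beta chains (Hbb-bs and its copy Hbb-bt), and young red cells still hold the messenger RNA. S100a8 and S100a9 encode the chains of calprotectin, a calcium-binding protein that neutrophils hold in large amounts and that monocytes also make. Mbp encodes myelin basic protein, a main component of the myelin that Schwann cells wrap around the axons of the motor and sensory nerves of a muscle.

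Whole samples were checked first. Total counts ran from 27591900 to 40862854 per sample. Muscle genes were abundant in every sample. The 12 genes of a muscle list, led by Acta1 (skeletal actin) and Atp2a1 (the calcium pump of fast fibres), summed to between 171600 and 292000 CPM. CPM are counts scaled to a common library size with TMM factors. The muscle sum was 205300 to 248900 CPM in WT_PBS, 220300 to 292000 in WT_ASO, 171600 to 187500 in KO_PBS and 185900 to 213000 in KO_ASO. The KO_PBS range thus lay below the WT_PBS range, and its bearing on marker CPM was not tested. Bin1 followed the genotype labels, at 462.6 to 619.8 CPM in the 8 wild-type samples and 31.7 to 47.7 CPM in the 8 knockout samples. Dnm2 followed the treatment labels, at 50.2 to 67.7 CPM in the 8 saline samples and 20.7 to 31.1 CPM in the 8 ASO1 samples. The 9 marker genes together took between 0.0222% (WT_ASO 2, 95% Wilson interval 0.0217% to 0.0227%) and 0.0701% (KO_ASO 4, 0.0691% to 0.0711%) of the counts of a sample, with intervals for counting error only.

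The sequences around the RefSeq start sites of Adipoq, Cfd, Hba-a1 and Hbb-bs are shown as a description. Whether they bear on the levels in single samples was not tested. Windows of Plin1 and the S100 genes are not shown. Of the 9 genes, 7 had an entry in the RefSeq promoter table (GRCm38.p6), which holds 250 bases before and 50 from the start. The windows of Adipoq and Cfd, the fat genes that followed each other most closely, were searched on both strands for the letters CCAAT, for TATAAA and for AGGTCA. In capitals are matches to CCAAT, of which Adipoq held 3 and Cfd held 0, and matches to TATAAA and AGGTCA numbered 0 in both.
Adipoq (chr16:23146286-23146585, plus strand): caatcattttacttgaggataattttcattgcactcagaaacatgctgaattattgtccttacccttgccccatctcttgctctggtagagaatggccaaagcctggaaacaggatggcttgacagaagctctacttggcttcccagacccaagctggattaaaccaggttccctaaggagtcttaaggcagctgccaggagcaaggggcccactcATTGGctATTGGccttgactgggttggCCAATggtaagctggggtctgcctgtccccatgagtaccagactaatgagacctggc
Cfd (chr10:79890603-79890902, plus strand): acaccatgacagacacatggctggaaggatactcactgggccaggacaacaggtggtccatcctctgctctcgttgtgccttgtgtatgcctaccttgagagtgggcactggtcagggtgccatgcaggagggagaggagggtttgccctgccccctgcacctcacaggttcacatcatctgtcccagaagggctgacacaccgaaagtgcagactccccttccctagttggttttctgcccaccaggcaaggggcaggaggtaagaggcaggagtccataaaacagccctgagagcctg
The windows of Hba-a1 and Hbb-bs were searched for GATAA, for CACCC and for CCAAT, letters that lie in the known binding sites of erythroid factors of the GATA and KLF families and of CCAAT-binding factors. Matches are in capitals. Both windows held all 3, with CCAAT at -88 and -76 from the RefSeq start.
Hba-a1 (chr11:32283422-32283721, plus strand): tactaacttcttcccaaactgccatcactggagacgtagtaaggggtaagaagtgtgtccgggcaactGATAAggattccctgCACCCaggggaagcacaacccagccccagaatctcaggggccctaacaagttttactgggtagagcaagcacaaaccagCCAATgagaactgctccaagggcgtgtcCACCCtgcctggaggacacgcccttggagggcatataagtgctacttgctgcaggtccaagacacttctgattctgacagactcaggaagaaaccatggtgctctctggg
Hbb-bs (chr7:103827879-103828178, minus strand): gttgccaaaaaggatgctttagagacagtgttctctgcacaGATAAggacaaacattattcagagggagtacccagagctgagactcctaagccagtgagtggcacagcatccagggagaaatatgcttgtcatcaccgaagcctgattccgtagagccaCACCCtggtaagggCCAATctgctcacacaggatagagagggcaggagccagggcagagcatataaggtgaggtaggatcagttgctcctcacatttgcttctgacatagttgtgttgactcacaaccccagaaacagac
Across the 32851 promoters of the table, GATAA was found in 25.4%, CACCC in 57.5%, CCAAT in 37.4% and all 3 in 4.84%, while TATAAA was found in 13.6% and AGGTCA in 16.3%. The same letters outside their class were also present, with 1 GATAA in the Adipoq window and 1 CACCC in the Cfd window, which are not in capitals. A match is a description of the letters and not of binding.

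The globin genes carry a limit that their sequence shows. The Hba-a1 and Hba-a2 windows were identical over 297 of 297 bases at an offset of 3. The coding sequences of Hba-a1 and Hba-a2, 429 bases each, differed at 1 base, and so did the 444 bases of Hbb-bs and Hbb-bt. The stretches that hold the differing base, in capitals, are given from the GRCm38 genome, at coding positions 351 to 410 for the alpha genes and 385 to 444 for the beta genes.
Hba-a1: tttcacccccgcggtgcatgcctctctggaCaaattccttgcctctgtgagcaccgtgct
Hba-a2: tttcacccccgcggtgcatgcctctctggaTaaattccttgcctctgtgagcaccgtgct
Hbb-bs: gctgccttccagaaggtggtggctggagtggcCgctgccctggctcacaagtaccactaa
Hbb-bt: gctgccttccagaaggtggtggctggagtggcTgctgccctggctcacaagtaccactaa
The longest identical run was 380 bases in the alpha pair and 416 in the beta pair. A read inside it matches both copies, so counts of each globin gene depend on how such reads were treated and are uncertain.

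Compared per kilobase of annotated exon, the median sample held 67.1 CPM per kb of Hbb-bs, 55.8 of Fabp4, 13.9 of Hba-a1, 11.7 of Cfd, 1.51 of Adipoq, 1.32 of Mbp, 0.283 of S100a9, 0.191 of Plin1 and 0.155 of S100a8. The order depends on the annotated length, which for Fabp4 is 4489 bases, its whole span. In plain CPM the median of Fabp4 was 250.3 and that of Hbb-bs 51.6. Values of each gene in single samples follow, in plain CPM.

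**Figure D1:**
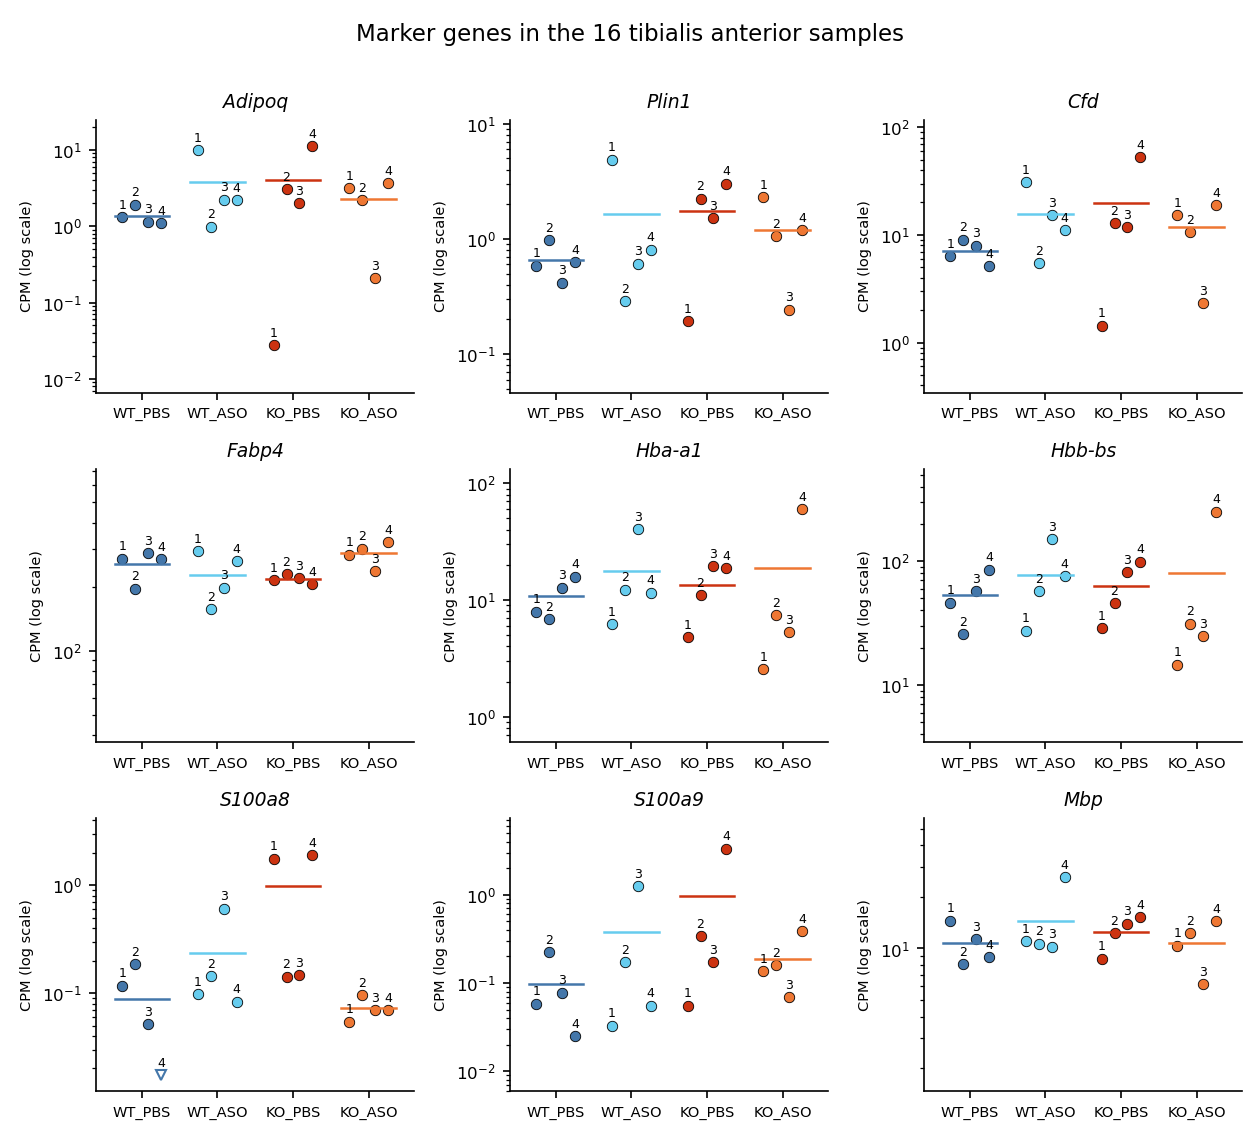
CPM (log scale) of the 9 marker genes in each sample, with 4 samples in each of the groups WT_PBS, WT_ASO, KO_PBS and KO_ASO. Points are samples with their replicate number, horizontal bars are group means, and the open triangle marks a count of 0 in WT_PBS 4. Single samples lie far from the rest of their group in fat, blood and S100 genes, and Fabp4 stays between 156.3 and 324.5 CPM.

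Adiponectin (Adipoq, ENSMUSG00000022878, chromosome 16, 23146536 to 23158028, plus strand) varied 53.3-fold between its lowest and its highest value among the 15 samples with more than 3 counts, and the other sample, KO_PBS 1, held 1 count. It measured 1.32, 1.90, 1.14 and 1.103 CPM in WT_PBS 1 to 4 and 9.88, 0.984, 2.22 and 2.196 CPM in WT_ASO 1 to 4. In the knockout groups it measured 0.0276, 3.03, 1.999 and 11.1 CPM in KO_PBS 1 to 4 and 3.15, 2.17, 0.208 and 3.66 CPM in KO_ASO 1 to 4. KO_PBS 4 and WT_ASO 1 stood above all other samples, at 449 and 302 counts, whereas KO_PBS 1 held 1 count and KO_ASO 3 held 6. The lowest and the highest sample were thus both KO_PBS mice.

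Adipsin (Cfd, ENSMUSG00000061780, chromosome 10, 79890853 to 79892655, plus strand) repeated this order at its ends. It measured 6.38, 9.01, 7.96 and 5.12 CPM in WT_PBS and 30.8, 5.497, 15.4 and 11.01 CPM in WT_ASO. It measured 1.43, 12.8, 11.9 and 52.8 CPM in KO_PBS and 15.3, 10.6, 2.32 and 19.0 CPM in KO_ASO. KO_PBS 4 and WT_ASO 1 were again the 2 highest samples and KO_PBS 1 and KO_ASO 3 the 2 lowest. Group means were 7.12 ± 1.72 CPM in WT_PBS, 15.7 ± 10.9 in WT_ASO, 19.7 ± 22.7 in KO_PBS and 11.8 ± 7.18 in KO_ASO (SD, n = 4 each), so in KO_PBS the SD exceeded the mean.

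Perilipin 1 (Plin1, ENSMUSG00000030546, chromosome 7, 79720218 to 79732903, minus strand) was less abundant, with 7 to 149 counts per sample. It measured 0.585, 0.968, 0.415 and 0.627 CPM in WT_PBS and 4.88, 0.289, 0.607 and 0.806 CPM in WT_ASO. It measured 0.193, 2.24, 1.51 and 3.01 CPM in KO_PBS and 2.31, 1.06, 0.242 and 1.19 CPM in KO_ASO. WT_ASO 1 was highest here and KO_PBS 4 second, and KO_PBS 1 and KO_ASO 3 were lowest as for Adipoq and Cfd.

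Fabp4 (ENSMUSG00000062515, chromosome 3, 10204088 to 10208576, minus strand) did not share these extremes. It measured 270.8, 195.8, 287 and 269 CPM in WT_PBS, 295, 156.3, 198 and 264 CPM in WT_ASO, 214, 229, 220.0 and 205 CPM in KO_PBS and 284, 302, 237 and 325 CPM in KO_ASO. The highest sample was 2.08 times the lowest, and KO_PBS 1, with 1 count of Adipoq, held 7772 counts of Fabp4. The ratio of Fabp4 to Adipoq counts ran from 18.6 in KO_PBS 4 to 1139 in KO_ASO 3 over the 15 samples with more than 3 counts of Adipoq. By contrast, the ratio of Fabp4 to Pecam1, an adhesion molecule of endothelial cells, ran from 1.98 to 2.72, and that to Cdh5, the cadherin of endothelial junctions, from 1.32 to 2.30. The highest ratio was thus 1.37 times the lowest for Pecam1, 1.74 times for Cdh5 and, over those 15 samples, 61.4 times for Adipoq. Fabp4 itself varied little, so its ratio to any gene that varied little is narrow. The gene most like Fabp4 within groups was Acadl, an enzyme of fatty acid oxidation, and the cells that made Fabp4 were not tested.

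The other genes of a fat list of 19 split in the same manner. The list held 15 genes beside the 4 above, and 13 of these were tested. KO_PBS 4 was the highest sample in 5 of the 15, including Cidec, a droplet protein (8.48 CPM, and 0.221 in KO_PBS 1), and Retn, which encodes the hormone resistin (4.66 CPM). Likeness to Adipoq, as Pearson r of log2 CPM after subtraction of group means over the 16 samples, was 0.968 for Cidec, 0.944 for Retn, 0.799 for the desaturase Scd1 and 0.729 for leptin (Lep). It was 0.13 for Plin4, 0.20 for the triglyceride enzyme Dgat2, 0.46 for the lipase Lipe and 0.02 for Pparg, the master transcription factor of fat cells. Plin4, Dgat2 and Lipe, at means of 455.9, 43.5 and 33.9 CPM, were the 3 most abundant of these genes. The most like genes for the mean of the 4 fat genes, among all genes tested, were Cidec (r = 0.976), Cyp2e1 (0.967), Retn (0.95), Pck1 (0.917), the enzyme that commits to glyceroneogenesis in fat, and haptoglobin (Hp, 0.907), and 6 genes lay above 0.9.

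Alpha globin (Hba-a1, ENSMUSG00000069919, chromosome 11, 32283511 to 32284465, plus strand) varied 23.4-fold over the samples. It measured 7.93, 6.85, 12.7 and 15.8 CPM in WT_PBS and 6.22, 12.3, 40.6 and 11.51 CPM in WT_ASO. It measured 4.83, 11.05, 19.6 and 18.6 CPM in KO_PBS and 2.55, 7.41, 5.30 and 59.8 CPM in KO_ASO. KO_ASO 4 was the highest and WT_ASO 3 the second, and the other 3 KO_ASO samples lay at or below 7.41 CPM.

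Beta globin (Hbb-bs, ENSMUSG00000052305, chromosome 7, 103826534 to 103828096, minus strand) showed the same order at the top. It measured 46.2, 25.7, 57.0 and 85.5 CPM in WT_PBS and 27.5, 57.4, 150.4 and 75.4 CPM in WT_ASO. It measured 28.7, 45.6, 81.0 and 99.0 CPM in KO_PBS and 14.6, 31.3, 24.7 and 250.4 CPM in KO_ASO. KO_ASO thus held both the highest and the lowest sample, and its mean was 80.2 ± 113.6 CPM (SD, n = 4) against 53.6 ± 24.9 in WT_PBS. The ratio of Hbb-bs to Hba-a1 counts stayed between 3.71 and 6.55, with a median of 4.57, while the levels themselves varied 17.2-fold and more.

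The copies and the haem enzyme followed. Hba-a2 was 0.467 to 0.783 times Hba-a1, Hbb-bt was 0.157 to 0.218 times Hbb-bs, and Alas2, which starts haem synthesis in red cell precursors, was 0.0539 to 0.101 times Hbb-bs, all in counts. Likeness to the mean of both globin genes was 0.992 for Hba-a2, 0.986 for Hbb-bt, 0.984 for Alas2, 0.892 for Ube2l6 and 0.878 for Calr. Alas2 overlaps Apex2 on the other strand, which held a mean of 210.1 counts, and whether strand was used in counting is not stated in the labels. Genes of earlier red cell stages were near 0, with at most 28 counts of Slc4a1 and 5 of Klf1 in any sample, and Slc4a1 peaked in KO_ASO 4. Bpgm, the enzyme that makes the oxygen-releasing 2,3-bisphosphoglycerate, did not follow the globins (r = 0.365 with Hbb-bs) and was the most abundant of the other listed genes at a mean of 90.2 CPM. It was 64.2 ± 8.44 CPM in KO_PBS and 100.1 ± 4.602 in WT_PBS (SD, n = 4 each), a fall by a log2 fold change (log2FC) of -0.64 (SE 0.09, edgeR adjusted P = 0.000298), and rose in KO_ASO vs KO_PBS by 0.45 (SE 0.09, edgeR adjusted P = 0.0124). The latter call was lost when KO_ASO and KO_PBS were fitted alone (edgeR adjusted P = 0.0533).

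Both S100 genes were close to the limit of counting in most samples. S100a8 (ENSMUSG00000056054, chromosome 3, 90668978 to 90670035, plus strand) held 4, 5, 2 and 0 counts in WT_PBS, 3, 5, 20 and 3 in WT_ASO, 64, 5, 6 and 77 in KO_PBS and 2, 3, 2 and 2 in KO_ASO. The count of 0 in WT_PBS 4 allows up to 0.0734 CPM, the level of 3 counts in that library. KO_PBS 4 and KO_PBS 1, at 1.90 and 1.76 CPM, stood above all others, and WT_ASO 3 followed at 0.607 CPM.

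S100a9 (ENSMUSG00000056071, chromosome 3, 90692632 to 90695721, minus strand), the partner chain, held 2, 6, 3 and 1 counts in WT_PBS, 1, 6, 41 and 2 in WT_ASO, 2, 12, 7 and 135 in KO_PBS and 5, 5, 2 and 11 in KO_ASO. KO_PBS 4 at 3.33 CPM and WT_ASO 3 at 1.25 CPM were the highest. KO_PBS 1 broke the pair, since its 64 counts of S100a8 came with 2 counts of S100a9, a ratio of 0.0313. Over the 15 samples with S100a8 counts this ratio had a median of 1.2 and reached 5.5 in KO_ASO 4.

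Defining neutrophil genes were at or near 0. The surface marker Ly6g had a count of 0 in 15 samples and 1 count in the other, the granule genes Camp and Ngp had 0 in 14 and 12 samples, and the granule enzyme Mpo had 0 in 15. Of 17 listed neutrophil genes beside the S100 pair, 3 were abundant enough to be tested, Lcn2, Mmp9 and Csf3r, with means of 0.806, 0.482 and 0.360 CPM. KO_PBS 4 was the highest sample in 12 of the 17, with 15 counts of Ngp, 34 of Wfdc21, 23 of the chemokine receptor Cxcr2 and 76 of Csf3r, the receptor of granulocyte colony-stimulating factor. KO_PBS 1, the other sample high in S100a8, had the lowest sum of these 17 genes of all samples, 0.993 CPM against 8.61 in KO_PBS 4.

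Macrophage genes were also read, since monocytes make S100 proteins. The summed level of 12 macrophage genes, led by Lyz2 (lysozyme) and Mrc1 (the mannose receptor), was 220.7, 131, 130 and 388 CPM in KO_PBS 1 to 4 and between 50.5 and 113 CPM in the other 12 samples. Of the 12 genes, 10 rose in KO_PBS vs WT_PBS and 7 fell in KO_ASO vs KO_PBS by edgeR, where 7.43% and 2.83% of all genes tested were called in those directions. The genes most like the mean of S100a8 and S100a9 were Cd300ld (r = 0.873), Scara5 (0.861), Pld4 (0.86), C1ra (0.857) and Mpeg1 (0.842), the last a pore-forming protein of macrophages, and 0 genes lay above 0.9. The part of macrophages or monocytes in the S100 levels was not tested.

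Myelin basic protein (Mbp, ENSMUSG00000041607, chromosome 18, 82475146 to 82585637, plus strand) varied less, 4.25-fold over the samples. It measured 14.5, 8.08, 11.4 and 8.93 CPM in WT_PBS and 11.03, 10.7, 10.3 and 26.2 CPM in WT_ASO. It measured 8.71, 12.2, 14.0 and 15.2 CPM in KO_PBS and 10.4, 12.3, 6.16 and 14.5 CPM in KO_ASO. WT_ASO 4 stood alone at the top, KO_PBS 4 came next, and KO_ASO 3 was the lowest.

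All 16 other listed myelin genes were tested, and WT_ASO 4 was the highest sample in 13 of them. In it Pmp22 reached 51.0 CPM and periaxin (Prx) reached 16.4 CPM. The ratio of Mbp to Prx counts stayed between 1.07 and 1.79. Among the genes most like Mbp were Prx (r = 0.933), Mal (0.916), Cldn19 (0.9) and Mag (0.868), all of them myelin genes of the list. Cnp (r = 0.239) did not follow, and it overlaps Dnajc7 on the other strand, which held a mean of 4438.5 counts.

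**Figure D2:**
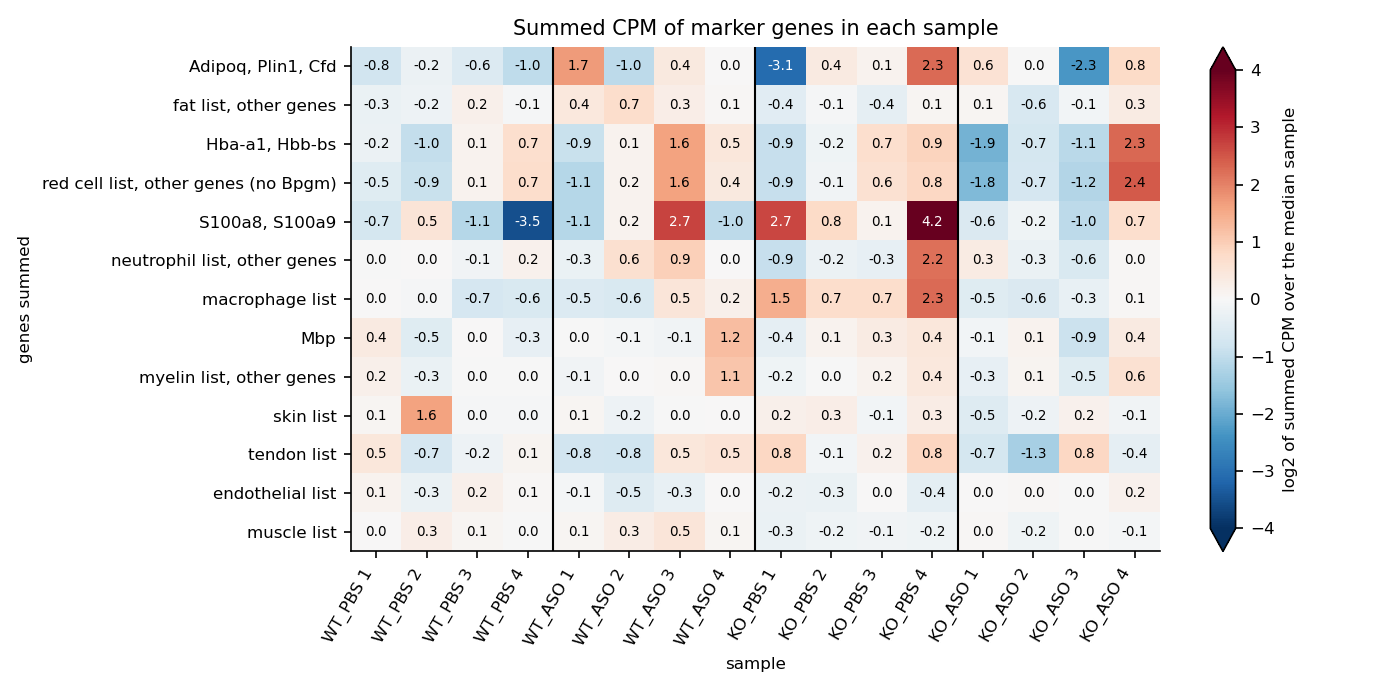
Summed CPM of marker genes (rows) in each of the 16 samples (columns), as log2 of the value over the median sample, with groups divided by black lines. KO_PBS 4 is high in Adipoq, Plin1 and Cfd, in S100a8 and S100a9 and in macrophage genes, WT_ASO 1 in fat genes, KO_ASO 4 and WT_ASO 3 in globin genes, WT_ASO 4 in myelin genes and WT_PBS 2 in skin genes.

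Pairs of marker genes were then compared within groups. For each of 36 pairs, group means were subtracted from log2 CPM (prior count 2), samples were permuted within groups 100000 times in a two-sided permutation test, and P values were adjusted by Benjamini-Hochberg over the 36 pairs. Adipoq and Cfd gave r = 0.982 (permutation P = 3e-05, adjusted P = 0.00054) and rho = 0.953 (P = 2e-05, adjusted P = 0.00072). Adipoq and Plin1 gave r = 0.923 (P = 0.00013, adjusted P = 0.00156) and rho = 0.924 (P = 0.00061, adjusted P = 0.00621), and Plin1 and Cfd gave r = 0.882 (P = 0.00071, adjusted P = 0.00639) and rho = 0.862 (P = 0.00069, adjusted P = 0.00621). Hba-a1 and Hbb-bs gave r = 0.976 (P = 3e-05, adjusted P = 0.00054) and rho = 0.935 (P = 4e-05, adjusted P = 0.00072). Without the 2 samples farthest from the median of the first gene, these 4 values of r were 0.95, 0.867, 0.812 and 0.932. The pairs that held were thus the 3 fat genes other than Fabp4 and the globins.

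The remaining 32 pairs did not pass. Fabp4 gave r = 0.354 with Adipoq (P = 0.0767, rho = 0.294, P = 0.305), 0.472 with Plin1 (P = 0.107, rho = 0.288, P = 0.369) and 0.349 with Cfd (P = 0.0974, rho = 0.206, P = 0.467). S100a8 and S100a9 gave r = 0.519 (P = 0.166, adjusted P = 0.398) and rho = 0.468 (P = 0.158), and without KO_PBS 1 the r was 0.893 and passed. No pair across the classes of fat, blood, neutrophil and nerve passed, the largest r being 0.602 for Cfd and S100a9 (P = 0.0793, rho = 0.512, P = 0.0859). The smallest unadjusted permutation P values across classes were those of Fabp4 and Mbp (r = 0.541, P = 0.0968, rho = 0.626, P = 0.0139, adjusted P = 0.1 for rho), Hba-a1 and S100a9 (r = 0.553, P = 0.0194, adjusted P = 0.14, rho = 0.521, P = 0.0603) and Hbb-bs and S100a9 (r = 0.5, P = 0.0318, adjusted P = 0.191, rho = 0.409, P = 0.141).

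**Figure D3:**
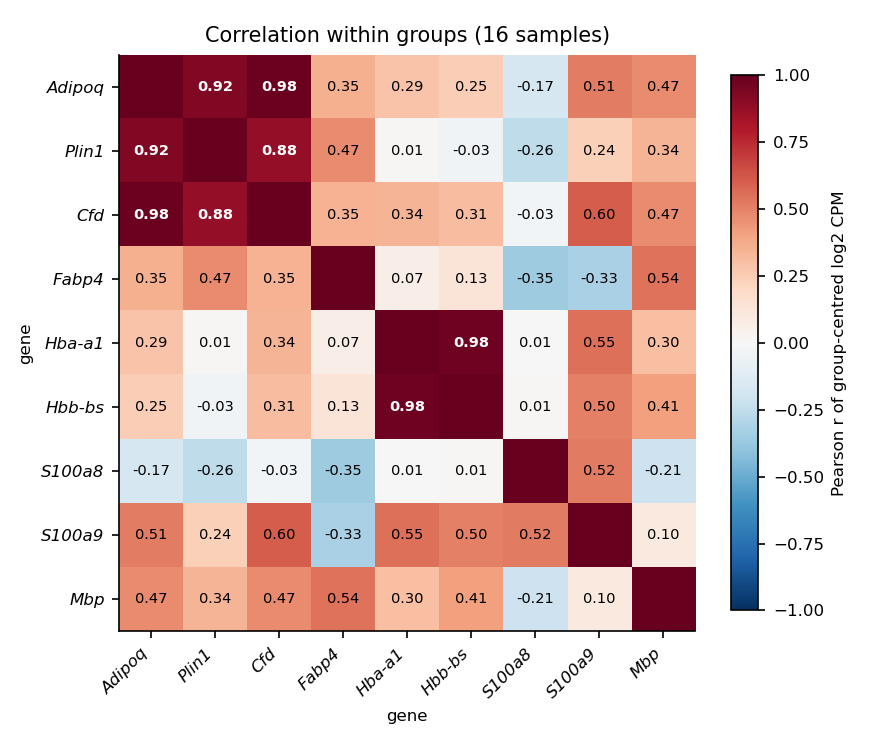
Pearson r of group-centred log2 CPM for each pair of marker genes over 16 samples, from -1 (blue) to 1 (red), with pairs at an adjusted P value under 0.05 in bold. Adipoq, Plin1 and Cfd form one block and Hba-a1 and Hbb-bs another, whereas Fabp4 has r of 0.35 to 0.47 with the fat genes.

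**Figure D4:**
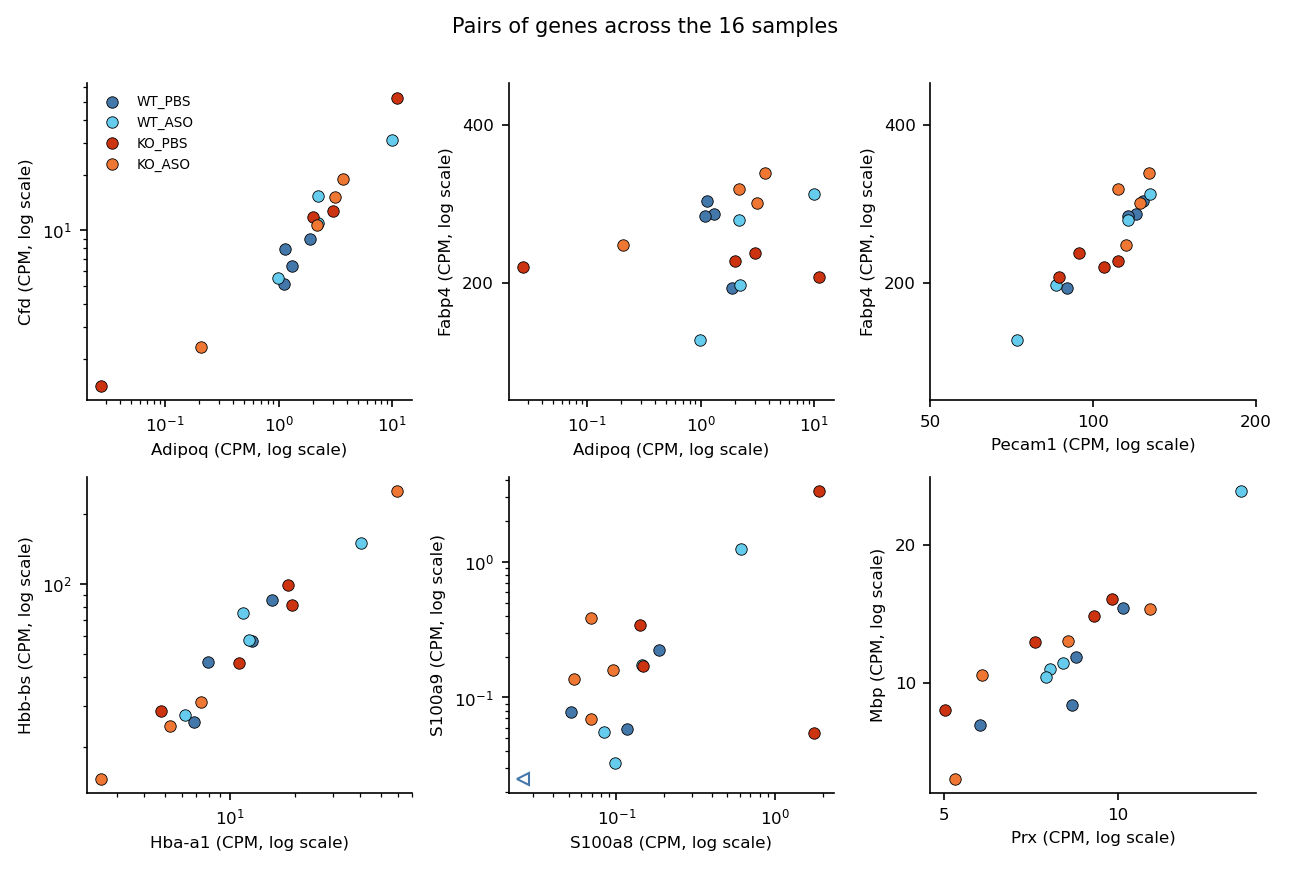
CPM of 6 pairs of genes on log axes, with 1 point per sample, coloured by group, and an open triangle for the S100a8 count of 0. Cfd follows Adipoq, Hbb-bs follows Hba-a1 and Mbp follows Prx, the Fabp4 to Pecam1 ratio stays within 1.98 to 2.72 while Fabp4 to Adipoq spans 18.6 to 1139 in the 15 samples with more than 3 counts of Adipoq, and KO_PBS 1 lies apart from the other samples in S100a8 and S100a9.

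The spread between mice of a group was large for most of these genes. The pooled SD of log2 CPM within groups (12 degrees of freedom) was 1.87 for Adipoq, 1.47 for S100a9, 1.37 for Cfd, 1.33 for Plin1, 1.25 for Hba-a1, 1.17 for Hbb-bs, 0.49 for Mbp and 0.26 for Fabp4, against a median of 0.23 over the 14960 genes tested. Of those genes, 21 had a larger SD than Adipoq, 111 a larger SD than Hbb-bs and 6595 a larger SD than Fabp4. Single samples carried part of this spread, since the SD of Adipoq was 1.30 without KO_PBS 1, and that of Hba-a1 was 0.88 and that of Hbb-bs 0.81 without KO_ASO 4.

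Groups were compared with edgeR's quasi-likelihood test on all genes, in which 8 of the 9 genes were tested and S100a8 fell under the filter on low counts. Of the 8, 0 were differentially expressed genes (DEGs) at an adjusted P value under 0.05 in any of 6 comparisons. The share of all genes called was 12.6% for KO_PBS vs WT_PBS, 3.64% for KO_ASO vs KO_PBS, 0.00668% for WT_ASO vs WT_PBS, 0.0735% for KO_ASO vs WT_ASO, 0.0401% for KO_ASO vs WT_PBS and 0.575% for the interaction, the difference between the effect of ASO1 in knockout and in wild-type mice. At an unadjusted P value under 0.05 the counts were 1, 1, 0, 0, 0 and 2 of 8, in the same order, where 27.3%, 17.7%, 6.45%, 15.1%, 8.22% and 12.7% of all genes tested passed. DESeq2 called 1 gene, S100a9 in KO_PBS vs WT_PBS, and limma-voom called 0. By DESeq2 the share of all genes called was 16.9%, 7.06%, 0.221%, 2.8%, 0.635% and 2.53% in that order.

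In KO_PBS vs WT_PBS, which asks for the effect of the genotype, the fat genes had intervals that reached from slightly lower to far higher levels. The log2FC was 1.58 for Adipoq (SE 1.01, 95% interval -0.59 to 3.75, edgeR adjusted P = 0.344), 1.48 for Cfd (SE 0.82, -0.29 to 3.25, adjusted P = 0.271) and 1.44 for Plin1 (SE 0.86, -0.38 to 3.27, adjusted P = 0.302). Without KO_PBS 4 these values were 0.33, 0.31 and 1.05. Fabp4 was at -0.24 (SE 0.17, -0.59 to 0.12, adjusted P = 0.392). Hba-a1 was at 0.32 (SE 0.85), Hbb-bs at 0.25 (SE 0.80) and Mbp at 0.22 (SE 0.32), each with an adjusted P of 0.703 or more by edgeR. Hbb-bs was at -0.04 without KO_PBS 4, Hba-a1 at 0.07 without KO_PBS 3 and Mbp between 0.11 without WT_PBS 2 and 0.40 without WT_PBS 1.

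S100a9 had the largest estimate of the 8 in this comparison, with means of 0.974 ± 1.57 CPM in KO_PBS and 0.0962 ± 0.0876 in WT_PBS (SD, n = 4 each). Its log2FC was 3.42 (SE 1.28, 95% interval 0.69 to 6.15), which edgeR did not call (adjusted P = 0.0945) and DESeq2 did (adjusted P = 0.0236). Without KO_PBS 4 the log2FC was 1.06 (edgeR adjusted P = 0.612). By limma-voom, with all samples, it was 2.10 (adjusted P = 0.305). For S100a9 limma-voom also gave -1.06 in KO_ASO vs KO_PBS, 1.01 in WT_ASO vs WT_PBS and 0.03 in KO_ASO vs WT_ASO. The S100a9 interaction was -2.07 by limma-voom, so the size of these values depends on the method. S100a8 was compared on its own by a two-sided exact permutation test on log2 CPM, over 5 comparisons, with a smallest possible P of 0.0286 for 4 against 4. The difference KO_PBS minus WT_PBS was 2.27 (exact P = 0.114, 0.19 after adjustment over 5). Without the filter and with all 16 samples, edgeR gave S100a8 a log2FC of 3.54 in KO_PBS vs WT_PBS (adjusted P = 0.066) and -3.73 in KO_ASO vs KO_PBS (adjusted P = 0.124), and called neither.

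In KO_ASO vs KO_PBS, the effect of ASO1 in knockout mice, ranges of the 2 groups did not overlap for 1 of the 8 genes tested, Fabp4, where 10.4% of all genes tested did not overlap. They did not overlap for S100a8 either, which was not among the genes tested and held 2 to 3 counts in KO_ASO against 5 in the lowest KO_PBS sample. In KO_PBS vs WT_PBS, WT_ASO vs WT_PBS, KO_ASO vs WT_ASO and KO_ASO vs WT_PBS the ranges overlapped for all 9 genes, whereas 20.4%, 3.22%, 6.97% and 5.39% of the genes tested did not overlap. S100a8 was 0.0723 ± 0.0173 CPM in KO_ASO and 0.988 ± 0.976 in KO_PBS (SD, n = 4 each), a difference of -2.25 on the log2 scale (two-sided exact permutation P = 0.0286, the smallest possible, and 0.143 after adjustment over 5). All KO_ASO counts of S100a8 were at or below the floor of 3 counts, so the size of this difference is uncertain. Fabp4 was 287 ± 37.4 CPM in KO_ASO and 217 ± 9.77 in KO_PBS (SD, n = 4 each), a log2FC of 0.40 (SE 0.17, 95% interval 0.05 to 0.75, edgeR adjusted P = 0.206). Of 11 listed endothelial genes, 0 were called by edgeR here (3.64% of all genes), 0 by DESeq2 (7.06% of all genes) and 4 passed an unadjusted P value under 0.05 (17.7% of all genes), with a median log2FC of 0.27 against 0.01 over all genes tested. S100a9 had a log2FC of -2.39 (SE 1.16, edgeR adjusted P = 0.304), which was -0.03 without KO_PBS 4.

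Fat, blood and nerve genes gave wide intervals for ASO1 in knockout mice. Adipoq had a log2FC of -0.81 (SE 0.97, 95% interval -2.90 to 1.28), Cfd of -0.74 (SE 0.80), Plin1 of -0.52 (SE 0.81) and Mbp of -0.21 (SE 0.32). Hba-a1 was at 0.47 (SE 0.85) and Hbb-bs at 0.33 (SE 0.80), and the adjusted P values of these 6 genes by edgeR were 0.713 or more. The sign rested on single samples in 4 of them. Without KO_PBS 4, Adipoq was at 0.44 and Cfd at 0.43, and without KO_ASO 4, Hba-a1 was at -1.42 and Hbb-bs at -1.44. Plin1 ran from -1.07 without KO_ASO 1 to -0.13 without KO_PBS 4, and Mbp was at -0.02 without KO_ASO 3.

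In WT_ASO vs WT_PBS, the effect of ASO1 in wild-type mice, 7 of the 8 genes had a positive log2FC, with adjusted P values of 0.843 or more by edgeR. The log2FC was 1.49 for Adipoq (SE 1.01), 1.34 for Plin1 (SE 0.86), 1.14 for Cfd (SE 0.82), 2.04 for S100a9 (SE 1.38), 0.70 for Hba-a1 (SE 0.86), 0.53 for Hbb-bs (SE 0.80) and 0.44 for Mbp (SE 0.32), and -0.16 for Fabp4 (SE 0.17). Leaving out 1 sample moved each of the 8 by more than 1.5 times. Without WT_ASO 1, Adipoq was at 0.41, Plin1 at -0.17 and Cfd at 0.58. Without WT_ASO 3, S100a9 was at 0.0004, Hba-a1 at -0.12 and Hbb-bs at -0.01, and without WT_ASO 4, Mbp was at -0.01. Fabp4 was at -0.02 without WT_ASO 2 and at -0.31 without WT_ASO 1. Different samples thus carried the fat, the blood and S100a9, and the nerve differences.

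**Figure D5:**
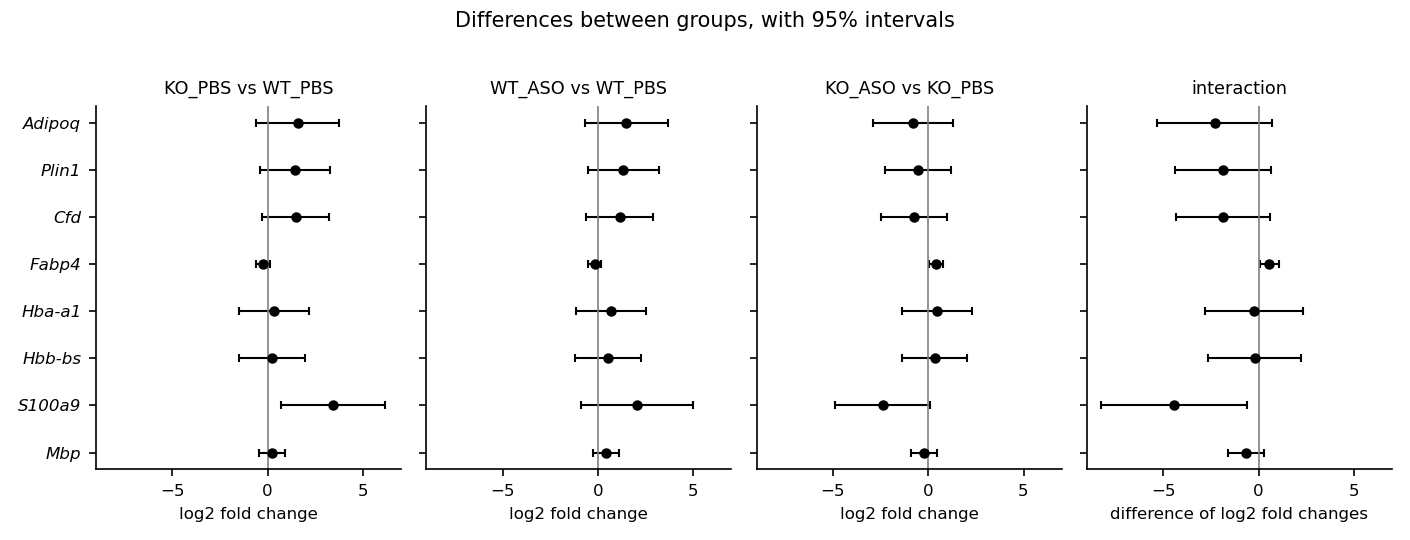
Log2 fold changes of the 8 tested marker genes with 95% intervals (points and bars) in 3 comparisons and, at the right, the difference between the effects of ASO1 in knockout and wild-type mice. Intervals span 0 for the 3 fat genes other than Fabp4, for both globins and for Mbp in each panel, and they are narrowest for Fabp4.

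The interaction was -4.43 for S100a9 (SE 1.80, edgeR adjusted P = 0.316), 0.56 for Fabp4 (SE 0.24, adjusted P = 0.326), -2.30 for Adipoq (SE 1.41, adjusted P = 0.545), -1.88 for Cfd, -1.86 for Plin1, -0.65 for Mbp, -0.23 for Hba-a1 and -0.20 for Hbb-bs. Without KO_PBS 4 it was -2.06 for S100a9, -1.04 for Adipoq and -0.70 for Cfd, and without WT_ASO 3 it was -2.39 for S100a9. Without WT_ASO 1 it was -0.35 for Plin1 and without WT_ASO 4 it was -0.20 for Mbp. It was -2.12 for Hba-a1 and -1.97 for Hbb-bs without KO_ASO 4, and 0.58 and 0.34 without WT_ASO 3. KO_ASO vs WT_ASO and KO_ASO vs WT_PBS gave log2FC between -1.01 and 1.03 for the 8 genes, with adjusted P values of 0.363 or more by edgeR. In KO_ASO vs WT_ASO the sign rested on single samples for 7 of the 8, all but Fabp4, S100a9 being at -1.01 and at 1.03 without WT_ASO 3, and in KO_ASO vs WT_PBS for Hba-a1, Hbb-bs and Mbp, all 3 below 0 without KO_ASO 4. In the order of group means, Adipoq, Cfd, Plin1 and both S100 genes were highest in KO_PBS, Fabp4 and both globins in KO_ASO, and Mbp in WT_ASO, and in each order neighbouring groups that were tested did not differ by the tests above. For all of these genes but Fabp4 and S100a8, the top group changed when its highest sample was left out. KO_PBS was not tested against WT_ASO.

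Other genes of the fat, neutrophil and myelin lists were compared in the same fits. Beside the 4 fat genes, 1 of 13 fat genes tested rose in KO_PBS vs WT_PBS, where 7.43% of all genes rose. It was Cebpa, a transcription factor of fat cells and myeloid cells (1.59 ± 0.170 to 3.71 ± 0.962 CPM, SD, n = 4 each, log2FC 1.22, SE 0.26, edgeR adjusted P = 0.00577), while the median log2FC of the 13 was 0.29 against -0.01 over all genes. DESeq2 called 2 of the 13, Cebpa and Scd1. In KO_PBS vs WT_PBS, 0 of 3 neutrophil genes and 0 of 16 myelin genes were called by edgeR, with 1 and 2 at an unadjusted P value under 0.05 (27.3% of all genes), and DESeq2 called 0 and 1 (Egr2) of them. In KO_ASO vs KO_PBS, 0 of 13 fat, 0 of 3 neutrophil and 0 of 16 myelin genes were called by edgeR, with 2, 1 and 1 at an unadjusted P value under 0.05 (17.7% of all genes), and DESeq2 called 0. In WT_ASO vs WT_PBS these lists also had 0 calls by edgeR, with 3, 2 and 0 at an unadjusted P value under 0.05 (6.45% of all genes), and DESeq2 called Mmp9 alone, a matrix metalloproteinase of neutrophils, with a log2FC of -2.62 by edgeR (SE 0.47, adjusted P = 0.131).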

How the data were processed

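Per the labels, TRI Reagent was used for extraction and the TruSeq Stranded mRNA kit for the libraries. The authors deposited raw counts per Ensembl gene as whole numbers, not normalized. Tools listed in the submitters' processing notes, with no role, are STAR 2.5.3a, HTSeq 0.6.1p1, Bowtie2 2.2.8 and cutadapt 1.10, with the build mm10/GRCm38. The annotation release and strand setting were not given in these sources. All 29730 identifiers matched GENCODE M21.

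Counts were filtered by edgeR's filterByExpr by group (14960 genes kept, 14770 removed), TMM-normalised (factors 0.891 to 1.09) and tested over all 16 samples with the robust quasi-likelihood test of edgeR 4.0.16 in R 4.3.3, with Benjamini-Hochberg adjustment over all genes tested and a threshold of 0.05. The common biological coefficient of variation was 18.7%. DESeq2 1.42.0, limma-voom (limma 3.58.1), other scalings, no filter, a replicate block and fits of the compared groups alone were alternatives, as was leaving out each sample. The code was tested on simulated counts. Correlations used log2 CPM (prior count 2) and SciPy 1.17.1 in Python 3.11.15. The floor of a count of 0 was set at 3 counts. P values measure the spread between these samples, which the labels do not state to be separate animals. No pair of samples of a group was a duplicate (lowest mean chi-square per gene 20.4).

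The 9 genes and 11 lists (136 symbols, 3 without a row) were chosen with earlier results of these data known. Named were the 9 genes, Bin1 and Dnm2, the 4 most abundant further tested genes of the fat, red cell, neutrophil and myelin lists and up to 3 called ones, the 2 most abundant genes of other lists, and the 5 genes most like each class. Other genes were named after their values were seen, and so was the exact test of S100a8 chosen. Some genes that this rule names are not reported here.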

Additional observations from a re-analysis of the deposited data

Results flagged for a closer look

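In groups of 4 samples, a sample was singled out when its gap to the nearest other sample, divided by the range of the group, both in CPM, was above Dixon's 95% critical value. Of 72 groups of values examined, 12 held such a sample. Chance gives about 1 in 20 where values are normal, which CPM need not be. On the log2 scale, added after seeing the data, 3 of the 72 did, Mbp and the myelin sum in WT_ASO 4 and the skin sum in WT_PBS 2. Adipoq at 9.88 CPM and Plin1 at 4.88 CPM in WT_ASO 1 lay above the other WT_ASO samples, which reached 2.22 and 0.806 CPM. Hba-a1 at 59.8 CPM and Hbb-bs at 250.4 CPM in KO_ASO 4 lay above the other KO_ASO samples, which reached 7.41 and 31.3 CPM. In WT_ASO 3, S100a8 was at 0.607 CPM and S100a9 at 1.25 CPM, where the other WT_ASO samples reached 0.145 and 0.174 CPM. S100a9 was at 3.33 CPM in KO_PBS 4, where the other KO_PBS samples reached 0.340 CPM. Mbp was at 26.2 CPM in WT_ASO 4, where the other WT_ASO samples lay between 10.3 and 11.03 CPM.

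Sums over listed genes other than the 9 were read in the same way. Red cell genes without Bpgm summed to 115.7 CPM in KO_ASO 4 (other KO_ASO samples 6.30 to 13.4), neutrophil genes to 8.61 CPM in KO_PBS 4 (other KO_PBS samples 0.993 to 1.59) and myelin genes to 178 CPM in WT_ASO 4 (other WT_ASO samples 74.8 to 84.2). Of the 115.7 CPM, 53.8 were Hbb-bt and 38.5 Hba-a2, copies whose reads can also match Hbb-bs and Hba-a1. The red cell sum is thus largely not separate from the globin values above. Skin genes summed to 11.1 CPM in WT_PBS 2 (other WT_PBS samples 3.53 to 3.86). The sum of fat genes other than the 4 singled out no sample, and most of it was Plin4 (563 of 784 CPM in WT_ASO 1 and 855 of 964 CPM in WT_ASO 2), which did not follow Adipoq.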

How the results depend on the processing

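Of 1181 fold changes of the 8 tested genes under other settings, 1 was called (S100a9 by DESeq2) and 73 had the other sign without being called. In KO_PBS vs WT_PBS, 0 of the 8 tested genes were called by edgeR and 1 by DESeq2, and 0 to 1 of the 9 were called when each sample was left out, as in KO_ASO vs KO_PBS. The calls with a sample left out were of S100a8, in 11 and 3 of the 16 fits. It passed the filter in 13 of these, each of which kept KO_PBS 1, KO_PBS 4 and WT_ASO 3, its highest samples, so these calls are no support for a difference. The correlation of S100a8 and S100a9 ran from 0.303 to 0.893 when each sample was left out and passed only without KO_PBS 1, and it was the 1 of 720 correlations that changed its call. The within-group SD ran from 1.30 to 1.96 for Adipoq (lowest without KO_PBS 1), from 0.88 to 1.30 for Hba-a1 and from 0.81 to 1.22 for Hbb-bs (lowest without KO_ASO 4).

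Counts of all genes called moved more, and the cause was not tested. KO_PBS vs WT_PBS had 1878, with 997 (without KO_PBS 1) to 2137 when each sample was left out and 1080 without WT_PBS 4. KO_ASO vs KO_PBS had 544, with 1056 by DESeq2, 300 from the compared groups alone, 208 (without KO_PBS 1) to 831 (without KO_ASO 4) when each sample was left out, 315 without WT_ASO 1 and KO_PBS 4, and 868 without WT_ASO 3 and KO_ASO 4, both pairs chosen after seeing the data. WT_ASO vs WT_PBS had 1, with 3 without a filter, 33 by DESeq2, 1 to 4 when each sample was left out and 2 without WT_ASO 1 and KO_PBS 4. KO_ASO vs WT_ASO had 11, with 6 by RLE size factors, 419 by DESeq2, 4 by limma-voom, 2 from the compared groups alone, 2 to 19 when each sample was left out, and 5 and 3 without those pairs. KO_ASO vs WT_PBS had 6, with 95 by DESeq2 and 4 to 11 when each sample was left out. The interaction had 86, with 378 by DESeq2, 56 by limma-voom, 39 without WT_ASO 1 and KO_PBS 4, and 23 to 102 when each sample was left out.

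Samples with the same replicate number did not deviate together in every pair (lowest correlations -0.0261, -0.0777, -0.0652 and -0.0412, highest 0.408, 0.361, 0.211 and 0.435). Even so, 14 of 16 samples were closest to one of their own number. Hba-a1 and Hbb-bs summed to less in replicate 1 than in replicate 4 of each group (54.1 and 101.3 CPM in WT_PBS, 33.7 and 86.9 in WT_ASO, 33.5 and 118 in KO_PBS, 17.1 and 310.2 in KO_ASO). The labels do not say what the numbers stand for, and the main fit took no pairing. That fit and the permutations within groups leave any shared order by number out of account. Correlations of marker pairs may carry such an order, and whether the numbers mark a batch was not tested. With the replicate block the counts called were 2322 for KO_PBS vs WT_PBS, 752 for KO_ASO vs KO_PBS, 2 for WT_ASO vs WT_PBS, 44 for KO_ASO vs WT_ASO, 8 for KO_ASO vs WT_PBS and 126 for the interaction, with 0 of the 8 tested genes called.

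Depth limits S100a8 and S100a9 most, since 3 counts correspond to 0.0734 to 0.109 CPM and most samples held fewer than 10 counts of either gene.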

Other observations

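Genes of the outer layer of the skin were highest in 1 sample. WT_PBS 2 was the highest of the 16 samples in 8 of 9 skin genes, with 33 counts of Krt5, 14 of Krt14 and 15 of Krt1, keratins of the epidermis, and 34 of Dsp, a protein of cell junctions. Krt5 had a count of 0 in 12 samples, Krt14 in 13 and Krt1 in 15, whereas Krt10 and Sbsn were counted in all 16. None of the 9 fat, blood, neutrophil and nerve genes was at its highest in WT_PBS 2.

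The genes most like Fabp4 within groups were named after the values were seen. They were Acadl (r = 0.96), an enzyme of fatty acid oxidation, Lgals4 (0.95), Fam217b (0.931), Agpat2 (0.92) and Hsd17b4 (0.916), over 16 samples, and 8 genes lay above 0.9. Tendon genes gave 1 call among 9 tested, Scx, a transcription factor of tendon, which rose in KO_PBS vs WT_PBS (log2FC 2.24) and fell in KO_ASO vs KO_PBS (log2FC -1.31) by edgeR, where 7.43% of all genes rose and 2.83% fell. Scx overlaps Bop1 on the other strand, which held a mean of 1062.3 counts, and whether counting used strand is not given in the sources used here. Of 6 listed platelet genes, 2 were tested, Pf4, which macrophages also make, and Itga2b. Both rose in KO_PBS vs WT_PBS by edgeR, where 7.43% of all genes rose. In KO_ASO vs KO_PBS edgeR called a fall of Itga2b (2.83% of all genes fell), and DESeq2 called both (7.06% of all genes). Of 1 B cell gene tested, Ighm, 0 calls were made by edgeR in the 6 comparisons. DESeq2 called Ighm in KO_PBS vs WT_PBS (log2FC -1.67 by edgeR) and in KO_ASO vs KO_PBS (log2FC 1.73 by edgeR). It was called by limma-voom in KO_PBS vs WT_PBS alone. Flt1, 1 of 11 endothelial genes, fell in KO_PBS vs WT_PBS by edgeR, where 5.12% of all genes fell. Of 12 muscle genes, edgeR called 1 higher and 4 lower in that comparison, where 7.43% of all genes rose and 5.12% fell. DESeq2 called 7 of the 12 there (16.9% of all genes).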
